A study of Mus musculus with 169 samples.

Results

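Hippocampus and cortex of the same wild-type (WT) mice were compared on Illumina bead arrays. The comparison holds every WT mouse with an array of both regions. These were 16 animals and 32 arrays, out of 169 arrays in the series, of which 154 are bead arrays. The series profiles a mouse model of progranulin deficiency, in which the gene Grn is intact (WT), missing on one chromosome (het) or missing on both (KO, Grn-/-), in cortex, hippocampus and cerebellum and in sorted microglia.

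By age, the WT animals were 5 of 2 months, 2 of 6 months, 3 of 9 months, 2 of 12 months, 1 of 16 months and 3 of 18 months. By sex, 6 were female, 8 were male and 2 had no sex given. The 15 het and 18 KO animals with both regions served for comparison and to choose the probes of a regional score. The het animals were 4 of 2 months, 3 of 6 months, 3 of 9 months, 3 of 12 months and 2 of 18 months. The KO animals were 5 of 2 months, 3 of 6 months, 3 of 9 months, 3 of 12 months, 1 of 16 months and 3 of 18 months. All brain mice, WT included, shared a mixed background of 62.5% C57BL/6J, 25% FVB and 12.5% 129Sv/Jae. No treatment is named in the labels. Each array is 1 region of 1 mouse, so the animal is the replicate.

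The hippocampus is a cortical structure of the medial temporal lobe. It is built of the dentate gyrus, with its densely packed granule cells, and of the pyramidal cell fields of Ammon's horn, and it is known for its part in forming memories of places and events. The neocortex is a layered sheet whose excitatory neurons differ from layer to layer in their targets and in the transcription factors they keep. Both also hold inhibitory neurons, astrocytes, oligodendrocytes, microglia and vessels. In RNA from a whole region, fewer cells of a type and less RNA per cell cannot be told apart.

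The deposited table lists probes by number and does not pair them with genes, and no such pairing was used here. The results below are therefore about probes, and the tissue labels were not checked against marker genes. The table gives 25697 probes. Of these, 16362 were detected (detection p under 0.05) on 3 or more of the 32 arrays and were tested, and 9335 were not. The filter has no sharp edge in the data: 435 tested probes were detected on exactly 3 arrays, and 651 untested ones on exactly 2. Between 48.7% and 55.5% of probes were detected on an array. The median intensity of the 2-month arrays was 87.9 to 95.8 in cortex and 81.0 to 91.5 in hippocampus, below that of the older arrays, which was 152 to 352 in cortex and 127 to 280 in hippocampus. Age and this difference in brightness cannot be told apart between the 2-month animals and the rest. The lowest correlation between 2 of the 32 arrays over the tested probes was 0.912 and the highest was 0.988, and no 2 arrays were copies.

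One hippocampus array fell within the range of the cortex arrays on a regional score. The score of an array was the mean log2 level of 50 probes minus that of 50 others. The first 50 had the largest positive mean difference, hippocampus minus cortex, and the other 50 the largest negative one. These probes were chosen in the het and KO animals only. The score was -1.46, 0.43 and 1.49 in WT hippocampus (lowest, median and highest of 16) and -2.96, -2.21 and -1.24 in WT cortex. Of the 16 hippocampus arrays, 15 lay above every cortex array, the lowest of them at -0.71. The remaining 1, that of mouse 79 (16 months), lay within the cortex range. Its own cortex array had a score of -2.68, so the hippocampus was above the cortex in mouse 79 too, as it was in 16 of 16 animals.

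The score difference between the regions was 1.06 in mouse 399 (9 months), the smallest, and 3.70 in mouse 311 (2 months), the largest, with a mean of 2.48 ± 0.81 (SD, n = 16). The small difference in mouse 399 went with the highest cortex score of all, -1.24. In mouse 79 it was 1.22 and went with the lowest hippocampus score. The cerebellum of the same animals, on 13 arrays, had scores from -0.83 to 0.69, with a median of 0.52, nearer to hippocampus than to cortex. The probes of the score were chosen on hippocampus and cortex alone, so it does not measure how alike cerebellum and hippocampus are. By age, the mean score difference was 3.05 ± 0.69 at 2 months (SD, n = 5), 2.91 at 6 months (n = 2), 2.24 ± 1.04 at 9 months (n = 3), 2.45 at 12 months (n = 2), 1.22 in the 1 animal of 16 months and 1.94 ± 0.32 at 18 months (n = 3).

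**Figure D1:**
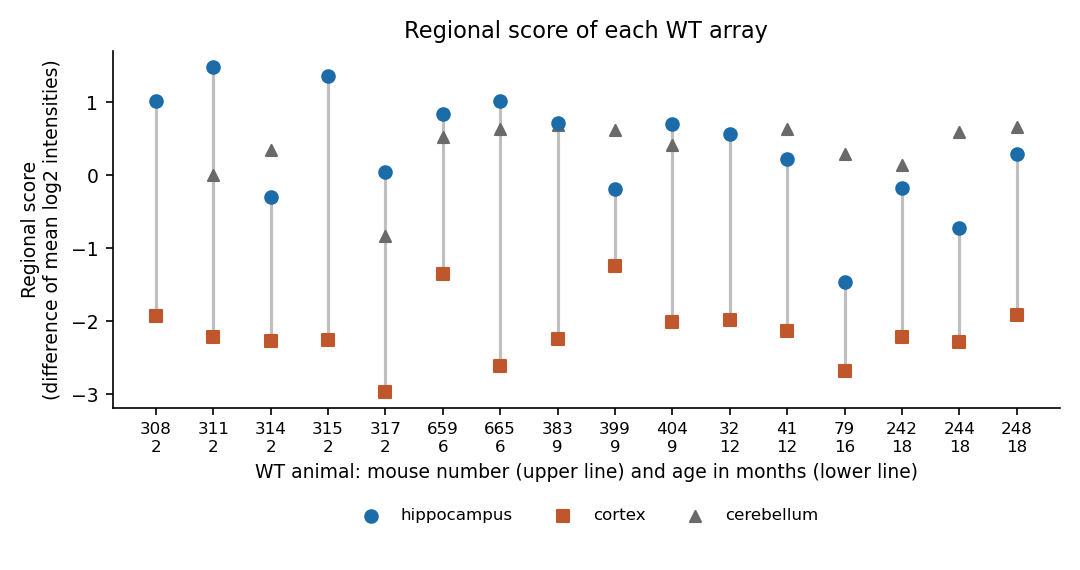
Regional score (difference of mean log2 intensities) of each WT hippocampus, cortex and, where measured, cerebellum array, with a grey line joining the hippocampus and cortex of 1 animal; the x axis gives mouse number and age in months. Hippocampus lies above cortex in 16 of 16 animals, and the hippocampus array of mouse 79, at -1.46, is the only one within the cortex range.

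Hippocampus differed from cortex at 3794 of the 16362 tested probes, 23.2%, at an adjusted p under 0.05 (limma, paired within animal, Benjamini-Hochberg adjustment over all tested probes). Of these, 1816 were higher in hippocampus, 11.1% of the tested probes, and 1978 were lower, 12.1%. At an unadjusted p under 0.05 there were 5843. Higher probes made up 47.9% of the calls, and 37.6% when the arrays were scaled to a common median in place of a common distribution (1246 higher, 2068 lower). The balance of directions over all calls therefore depends on the scaling. Without mouse 79 the calls were 1730 higher and 1904 lower.

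Most of the differences were small. The median absolute difference of the called probes was 0.37 on the log2 scale, and the median over all tested probes was -0.0085, with 5th and 95th percentiles of -0.43 and 0.41. Of 12342 probes with an absolute difference under 0.25, 702 were called. The next class, from 0.25 to 0.5, had 1989 calls among 2895 probes, and the class from 0.5 to 1 had 953 among 975. All 150 probes at or above 1 were called.

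Among those 150, higher probes outnumbered lower ones. A log2 difference of at least 1, with the same adjusted p, was found for 109 probes higher in hippocampus, 0.666% of those tested, and for 41 probes lower in it, 0.251%. Higher probes were thus 72.7% of the large differences, against 47.9% of all calls. The asymmetry grew with size: 81 higher and 39 lower from 1 to 1.5, 22 and 2 from 1.5 to 2, and 6 and 0 from 2 upward. These counts are not of independent probes. In the grouping below, a second group of 38 higher probes varied together across animals. Its median difference was 1.57, against 1.14 in the first group and 1.10 in the third. The last probe inside the threshold was at 1.01 and the first outside at 0.999 among the higher, and at -1.003 and -0.993 among the lower. Without mouse 79 the counts were 120 and 53. Without the background correction they were 19 and 6.

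**Figure D2:**
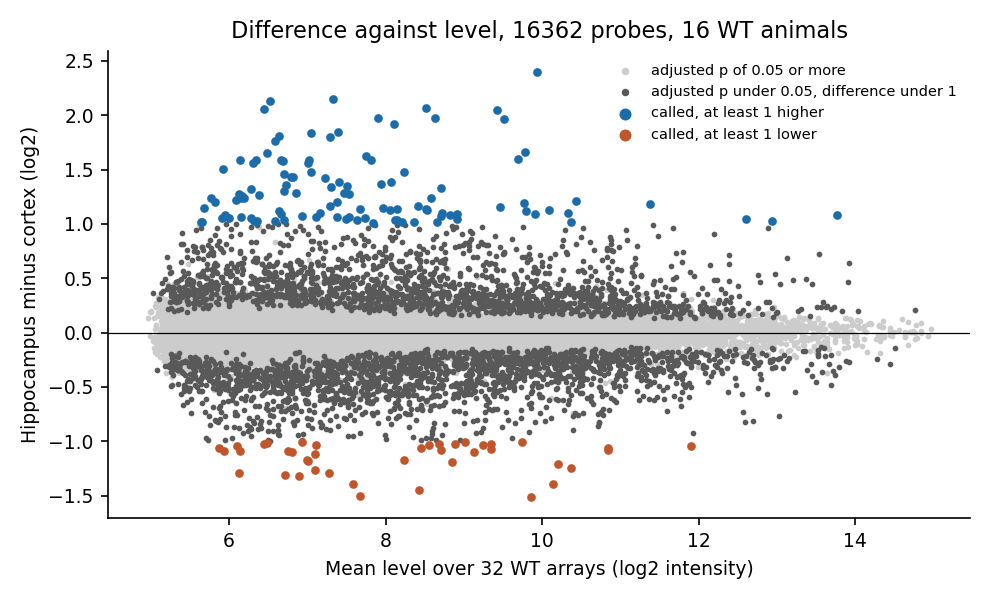
Mean log2 difference, hippocampus minus cortex, over 16 WT animals (y axis) against mean log2 intensity over the 32 arrays (x axis), 1 point per tested probe. The 109 probes at least 1 higher (blue) reach 2.40, whereas the 41 at least 1 lower (orange) reach -1.51.

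Calls were spread over the range of levels but were fewest among dim probes. From the lowest to the highest quartile of mean level, 10.6%, 26.0%, 29.5% and 26.6% of probes were called, and the median standard error of the difference went from 0.11 and 0.11 to 0.080 and 0.065. Over all tested probes it was 0.093.

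Few probes separated the regions without overlap. All 16 hippocampus arrays lay above all 16 cortex arrays at 11 probes, 0.0672% of those tested, and below them at 5, 0.0306%. Within animals the order was firmer: 276 probes were higher in the hippocampus of every animal and 213 were lower in every animal, together 2.99% of the tested probes, and all 489 were called. Of the 109 large higher probes 57 had the same sign in every animal, and of the 41 large lower ones 26.

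Most tested probes were detected in both regions. A total of 10028 probes, 61.3% of those tested, were detected on all 32 arrays. Only 14, 0.0856% of those tested, were detected on 13 or more hippocampus arrays and at most 3 cortex arrays. Only 7, 0.0428%, showed the reverse. The 14 had differences from 0.71 to 1.59 and the 7 from -1.09 to -0.70, with signs that follow from the rule that chose them. A single probe, 0.00611%, was detected on 13 or more hippocampus arrays and on 0 cortex arrays, and 0 probes showed the reverse. Of the large differences, 49 higher and 20 lower probes were detected on all 32 arrays, and the others fell below the detection threshold on at least 1 array.

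The probes with the largest differences of constant sign show how much animals varied. Probe ILMN_1245750 had the largest difference of all. Its log2 level was 9.71, 11.26 and 12.32 in hippocampus (lowest, median and highest of 16) and 7.58, 8.70 and 10.41 in cortex. Hippocampus was higher in 16 of 16 animals, although 4 hippocampus arrays lay within the cortex range. The mean difference was 2.40 (SE 0.24, adjusted p = 1.20e-06, limma), which is 5.27-fold, and it ran from 0.38 in mouse 399 to 4.33 in mouse 315. In the 2-month animals alone the difference was 3.18. In the cerebellum of these animals its median level was 10.16 (9.80 to 10.75, n = 13), between those of the other regions.

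Probe ILMN_1253148 was the second of the higher probes under the same rule. Its level was 7.42, 9.70 and 10.59 in hippocampus and 5.83, 7.43 and 9.18 in cortex, and it was detected on 16 of 16 hippocampus and 15 of 16 cortex arrays. Again 4 hippocampus arrays lay within the cortex range. The difference was 2.07 (SE 0.23, adjusted p = 4.31e-06, limma), or 4.19-fold, and ran from 0.44 in mouse 659 to 3.57 in mouse 317. Without background correction it was 1.42. The animals with the smallest and the largest difference were thus not those of the first probe. The cerebellum median was 9.05.

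Among the lower probes, ILMN_2943387 had the largest difference. Its level was 6.72, 9.29 and 10.005 in hippocampus and 9.88, 10.62 and 11.13 in cortex. The cortex values lay within a narrow band and the hippocampus values were spread, with an SD of 0.34 in cortex and 0.87 in hippocampus (n = 16 each), and 3 hippocampus arrays reached the cortex range. The difference was -1.51 (SE 0.19, adjusted p = 1.72e-05, limma), so the level was 2.85-fold lower. It ran from -3.64 in mouse 311 to -0.16 in mouse 41. In the 2-month animals alone it was -1.94, with an adjusted p of 0.0514 (limma), and so not called there. In cerebellum the median was 6.14, below both forebrain regions.

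Probe ILMN_2627081 followed with a like shape. Its level was 4.80, 7.07 and 8.30 in hippocampus, where 14 of 16 arrays detected it, and 7.66, 8.42 and 8.89 in cortex, where all 16 did. Of the hippocampus arrays, 5 lay within the cortex range. The difference was -1.50 (SE 0.22, adjusted p = 7.08e-05, limma), or 2.83-fold lower, and ran from -3.63 in mouse 311 to -0.011 in mouse 242. It was -0.80 without background correction and -2.10 in the 2-month animals alone. The cerebellum median was 5.04. The 12 highest probes of constant sign had differences from 1.46 to 2.40, and the 12 lowest from -1.51 to -1.17.

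**Figure D3:**
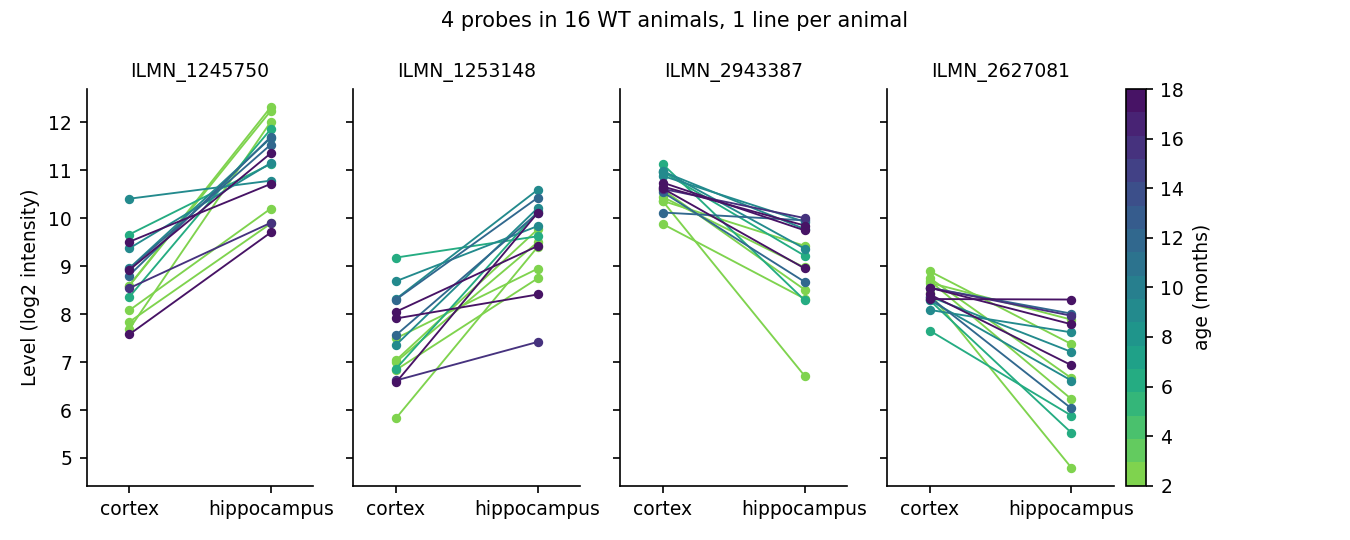
Log2 level of 4 probes in cortex and hippocampus, with 1 line per WT animal (n = 16) coloured by age in months. The lines of the first 2 probes all rise toward hippocampus and those of the other 2 all fall, from a narrow band in cortex (SD 0.34 for ILMN_2943387) to a wide one in hippocampus (SD 0.87).

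A wider spread in hippocampus than in cortex was common. After the mean of each age was removed, the median SD over all tested probes was 0.30 in hippocampus and 0.26 in cortex, and the hippocampus SD was the larger at 64.0% of probes. For the 109 large higher probes the medians were 0.55 and 0.41, and hippocampus was the more variable at 63.3%, near the share of all probes. For the 41 large lower probes they were 0.61 and 0.32, and hippocampus was the more variable at 38 of 41, 92.7%. The medians of the 41 were thus above those of all tested probes in both regions, by more in hippocampus. This was not tested, and the 41 were chosen on the same arrays.

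How the 109 higher probes varied from animal to animal split them into groups. Average-linkage clustering of their differences over the 16 WT animals, with the number of groups set at 3 after the data were seen, gave 62, 38 and 9 probes. With 2 groups, the first and second were joined and the 9 stayed by themselves. The groups carry no test, since the same differences made them.

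The first group, of 62 probes, had a mean difference of 1.24 ± 0.46 (SD over 16 animals), from 0.30 in mouse 399 to 2.18 in mouse 311. It was above 0 in 16 of 16 animals. Its mean log2 level was 8.51 in hippocampus, 7.27 in cortex and 8.23 in cerebellum. It holds ILMN_1245750, the probe with the largest difference. All 4 large probes whose hippocampus arrays lay wholly above the cortex arrays were in this group.

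The second group, of 38 probes, varied together. Its mean difference was 1.53 ± 0.79 (SD, n = 16), from -0.057 in mouse 79 to 2.47 in mouse 242, and was above 0 in 15 of 16 animals. Its mean log2 level was 8.15 in hippocampus, 6.63 in cortex and 7.84 in cerebellum. The median correlation between 2 of its probes over the WT animals was 0.73, against 0.37 within the first group and 0.57 within the third. In mouse 79, whose hippocampus array had the lowest regional score, the mean over the 38 probes was thus about 0. The first group still had a difference of 0.81 there and the third group 1.93. Without mouse 79 the second group's mean was 1.63 ± 0.69 (n = 15) and its lowest animal was at 0.45.

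The third group, of 9 probes, followed neither. Its mean difference was 1.15 ± 0.57 (SD, n = 16), from 0.32 in mouse 314 to 2.13 in mouse 315. Its median correlation with probes of the first group was -0.070 and with the second -0.18. Its mean level was 8.48 in hippocampus, 7.34 in cortex and 7.18 in cerebellum.

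The 41 lower probes had a mean difference of -1.15 ± 0.41 (SD, n = 16), below 0 in 16 of 16 animals, from -1.97 in mouse 311 to -0.60 in mouse 242. Mouse 311 thus had the largest difference both for the first group and for the lower probes, and the median correlation between the 2 sets was -0.29. Within the lower probes it was 0.35.

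The cerebellum lay between the other regions at most probes of the first and second groups. Its median level over 13 arrays was above both forebrain regions at 17 of the 62 probes of the first group, between them at 35 and below both at 10. For the second group it was above both at 7 of 38 and between them at 31, and at 0 was it below both. For the third group it was above both at 3 of 9 and below both at 6. The 41 lower probes were below both at 28 and between at 13, and above both at 0. Over all 16362 tested probes it was above both at 6814 and below both at 6455. Counted as undetected in cerebellum were 5 of the 41 lower probes, 4 of the first group and 1 of the third, so their levels there are not above background. By the medians, the 41 lower probes were for the most part lower still in cerebellum, while those of the second group were all at or above their cortex level there. All these probes were chosen for a gap of at least 1 between hippocampus and cortex, which leaves room for another region to fall between. Of all tested probes, 12342 had a gap under 0.25, so their counts are not a like comparison.

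The other genotypes gave measurements in animals that took no part in choosing the WT calls or the probe groups. Hippocampus differed from cortex in KO animals at 1630 probes that were higher (9.96% of those tested) and 1685 that were lower (10.3%). In het animals 431 were higher (2.63%) and 369 lower (2.26%). Across probes, the mean differences of WT animals correlated with those of KO animals at r = 0.85 and with those of het animals at r = 0.81 (n = 16362 probes of the same arrays' normalization, not independent of one another).

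Most WT calls were found again in KO animals, and fewer in het animals. Of the 1816 WT higher probes, 1146 (63.1%) were called higher in KO and 372 (20.5%) in het, with 0 called lower in either. Of the 1978 WT lower probes, 1168 (59.0%) were called lower in KO and 306 (15.5%) in het, again with 0 called the other way. The share rose with the size of the WT difference. Among called probes within 0.25 of 0, 40.2% were called in KO, against 56.4% of the higher ones from 0.25 to 0.5 and 86.1% of those from 0.5 to 1.

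Of the 109 large higher probes, 104 were called higher in KO and 55 in het, and of the 41 large lower ones 40 were called lower in KO and 30 in het. All 150 had the same sign in both genotypes, against 78.0% of all tested probes in KO and 75.2% in het. The median difference of the 109 was 1.21 in WT, 0.95 in KO and 0.72 in het, and that of the 41 was -1.09, -0.99 and -0.75. The WT values are those that chose the probes. The 4 named probes followed: ILMN_1245750 differed by 1.94 in KO and 1.72 in het, and ILMN_1253148 by 1.65 and by 1.01, the last with an adjusted p of 0.0781 (limma). ILMN_2943387 differed by -1.31 in KO and -1.06 in het, and ILMN_2627081 by -1.86 and -1.30.

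**Figure D4:**
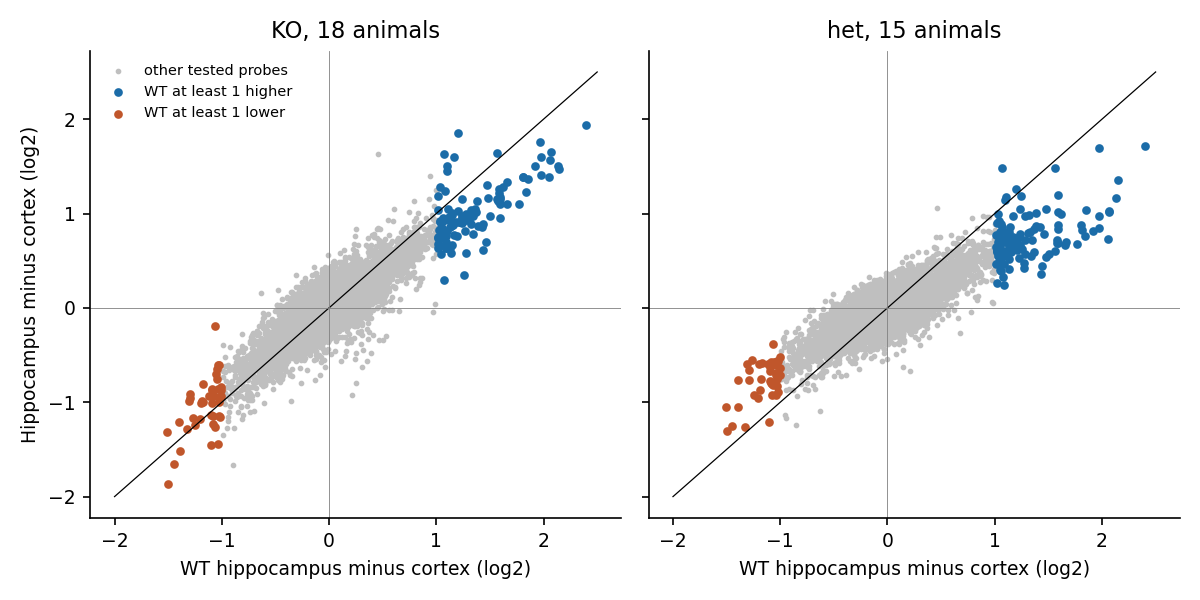
Mean log2 difference, hippocampus minus cortex, in KO (left) and het (right) animals on the y axis against that in WT animals on the x axis, 1 point per tested probe, with the line of equal values. The 109 large higher (blue) and 41 large lower (orange) probes lie on the same side of 0 in both genotypes, with a median of 0.95 in KO and 0.72 in het for the blue points.

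Probes of each group found in WT animals also correlated with one another in the 33 het and KO animals. The median correlation between 2 probes of the second group was 0.83 there, and it was 0.60 within the first group, 0.50 within the third and 0.44 within the lower probes. The first and second groups, nearly unrelated in WT animals (0.082), correlated at 0.53 in het and KO animals, close to the 0.60 within the first group. Their separation is thus weaker outside the animals that defined it. The third group stayed apart, at 0.18 with the first and 0.20 with the second.

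The second group varied widely in the other genotypes too, with an SD over animals of 1.05 in het and 0.98 in KO. Its mean difference was above 0 in 10 of 15 het animals, from -0.88 to 2.48, and in 15 of 18 KO animals, from -0.59 to 2.75. All 38 of its probes were called in KO, but only 3 in het. Of the first group, 57 of 62 were called in KO and 45 in het. Of the third group, 9 of 9 were called in KO and 7 in het. Over all tested probes, 9.96% were called higher in KO and 2.63% in het. Probes of a group varied together, so these are not counts of independent probes. Het hippocampus arrays also had more regional scores within the range of their own cortex arrays, 4 of 17, than KO (1 of 18) or WT (1 of 16) arrays. The probes of the score were chosen in the het and KO animals themselves, so these counts are a description, and scores of WT animals are not on the same footing. Their part in the lower het counts was not tested.

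**Figure D5:**
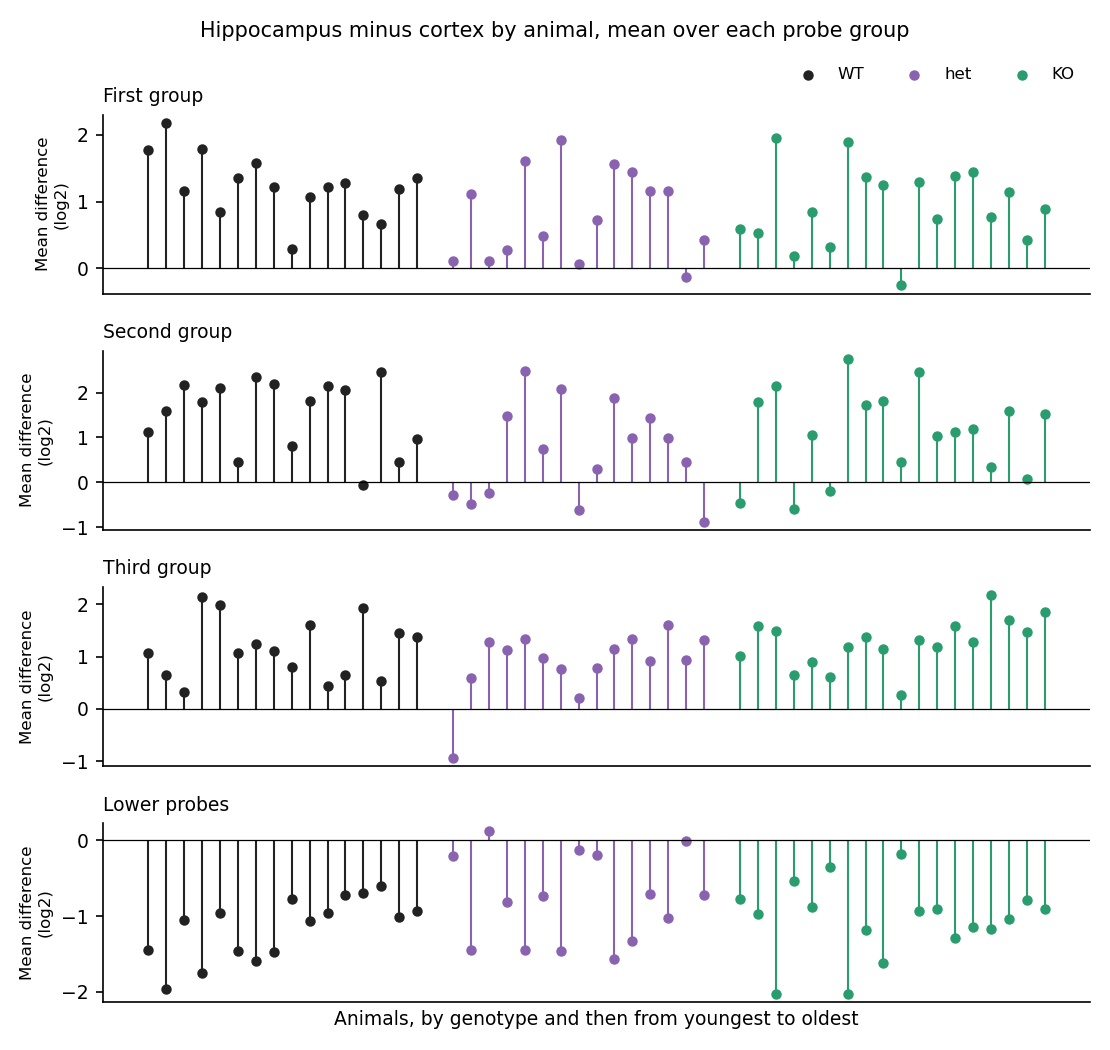
Mean log2 difference, hippocampus minus cortex, of the 3 groups of higher probes (62, 38 and 9 probes) and of the 41 lower probes, with 1 stem per animal, ordered by genotype (16 WT, 15 het, 18 KO) and then by age. The second group falls to about 0 in 1 WT animal (mouse 79, -0.057) and below 0 in 5 het and 3 KO animals, while the lower probes are below 0 in every WT and KO animal.

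No probe's regional difference was called between genotypes. For KO minus WT in the hippocampus minus cortex difference, 0 of 16362 probes (0%) passed an adjusted p of 0.05 (limma, age as a factor). At an unadjusted p under 0.05 there were 821 (5.02%), and the lowest adjusted p was 0.541. For het minus WT there were 0 calls, 1161 probes at an unadjusted p under 0.05 and a lowest adjusted p of 0.112. No probe's difference was thus called between het and WT, and the lower het counts above were not themselves compared by a test. In ILMN_1245750, KO minus WT was -0.55, with a 95% interval from -1.44 to 0.34, and in ILMN_2943387 it was 0.25, from -0.35 to 0.86. These intervals leave room for sizeable differences. On simulated data of the same spread, 58.2% of differences of 0.5 and 98.5% of differences of 1 were recovered. The changed probes were drawn at random from all tested ones, with noise independent between probes. Over all tested probes the median SE of KO minus WT was 0.13, against 0.44 for ILMN_1245750 and 0.30 for ILMN_2943387. The recovered shares therefore do not hold for such variable probes.

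The regional difference changed with age at 1 probe, 0.00611% of those tested, at an adjusted p under 0.05 (limma, slope per month over 16 animals). A total of 1536 probes, 9.39%, had an unadjusted p under 0.05. The probe, ILMN_1247343, was detected on all 32 arrays. Its hippocampus minus cortex difference was -0.66, -1.13, -1.08, -0.86 and -0.79 in the 5 animals of 2 months, and -0.66 and -0.60 at 6 months. At 9 months it was -0.0017, -0.87 and -0.056, and at 12 months -0.42 and -0.20. In the animal of 16 months it was 0.36, and in those of 18 months 0.29, 0.21 and 0.42. The sign thus turned: the probe was lower in hippocampus in every animal up to 12 months and higher in all 4 older ones. Array brightness also differed between these ages, and its part was not tested.

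The slope of ILMN_1247343 was 0.077 per month (SE 0.011, adjusted p = 0.0226, limma). It was 0.078 without the 2-month animals, but with an adjusted p of 0.430, and leaving out any of 9 single animals also took the adjusted p above 0.05, to at most 0.176. With sex as a covariate, and without the 2 animals whose sex is not given, it was 0.080 with an adjusted p of 0.210. Its size held and its call did not. Without the 2-month animals 1 probe was called for age, and it was another one. The hippocampus level of ILMN_1247343 lay between 6.05 and 7.03 at 2 months and between 7.38 and 7.69 at 18 months. Its cortex level lay between 7.13 and 7.82 at 2 months and between 6.95 and 7.48 at 18 months.

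The probes with large differences did not pass the test for age. The mean difference of the first group was 1.55 ± 0.54 at 2 months (SD, n = 5) and 1.09 ± 0.37 in the older animals (n = 11), and that of the lower probes was -1.43 ± 0.44 and -1.02 ± 0.34. For the second group the values were 1.76 ± 0.43 and 1.42 ± 0.91. The slopes of the 4 named probes ran from -0.080 to 0.092 per month, with adjusted p-values from 0.384 to 0.747 (limma). Their SEs were 0.029 to 0.038, against a median of 0.015 over all tested probes. On simulated data with randomly drawn probes, 28.4% of slopes of 0.05 per month and 80.6% of slopes of 0.1 were recovered. Slopes of this size could therefore be missed. The SD over probes of an animal's differences was also larger at 2 months, 0.50 to 0.66, than in older animals, 0.36 to 0.57, and the 2-month arrays were the dim ones; the part of brightness in these values was not tested.

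Single animals resembled the group to different degrees. The correlation over probes between 1 animal's differences and the mean of the other 15 WT animals was 0.26 in mouse 399, the lowest, and 0.65 in mouse 383, the highest, with a median of 0.47. Against the mean of the het and KO animals it was 0.24 in mouse 399 and 0.63 in mouse 383. In mouse 79 the same correlations were 0.35 and 0.41, so its differences, though small, ran along the common pattern more than those of mouse 399.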

How the data were processed

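Per the labels' protocols, Trizol-extracted RNA of each region went through RNeasy clean-up with DNase before biotin labeling. Per the file headers, the deposited values are an intensity, without normalization, and a p-value for detection of each probe on each array. Of its columns, 9 pairs belong to no sample of the series and were not used. The software behind the intensities is not given in the sources used here.

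All 154 bead arrays were background-corrected, quantile-normalized and put on the log2 scale with neqc (limma 3.58.1, R 4.3.3, offset 16). The number of arrays limits the precision. The main test was limma's moderated test of the within-animal difference, with Benjamini-Hochberg adjustment. Mouse numbers in the titles pair the regions. In 15 pairs, the deviations of the 2 regions from their age means correlated at -0.14 to 0.45 (median 0.24), 11 of them over 0.1. For each genotype contrast, differences of all 49 animals were fitted with age as a factor.

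Named are probes of constant sign in all animals with the largest differences (the rule for genes, applied to probes, 2 in each direction), and the probe called for age. The gene lists chosen for this comparison, the check of Grn and other probes of a symbol could not be used without gene names. Members, lists and tests were chosen with earlier results of these data known. The fits were tested on simulated data: of 16362 probes, 200 drawn at random were changed, with noise independent between probes. Of regional differences of 0.25, 0.5 and 1, 8.96%, 68.7% and 98.5% were recovered. In the data 23.2% of probes were called for region, far more than were changed here. The adjusted p threshold was therefore stricter in the simulation, and these shares do not carry over to the real regional comparison.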

Additional observations from a re-analysis of the deposited data

How the results depend on the processing

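The total of 3794 calls stayed within 1.5 times under every alternative run except the 2-month animals alone, and no probe named in the text changed sign. Of the 4 probes named for region, ILMN_2943387 lost its call in the 2-month animals alone. Leaving out 1 animal gave 3211 (without mouse 311) to 3787 calls, and 101 to 129 large higher and 29 to 53 large lower probes. The fit without the animal as a block, unpaired with age as a factor, gave 3559 calls, 109 large higher and 40 large lower probes in WT, 678 calls in het (800 paired) and 3116 in KO (3315 paired), so the pairing moved no count by 1.5 times. The 2-month animals alone gave 266 calls, 177 higher and 89 lower. Without them there were 1279 lower probes and 27 large lower ones. The counts of large differences also moved: 19 higher and 6 lower without background correction, 49 and 20 among probes detected on every array, 22 lower with cyclic loess and 26 lower with array weights. The age count was 1, and 0 with sex as a covariate; leaving out 1 animal gave 0 to 1. KO minus WT stayed at 0 calls in every fit. Other probes of the same symbol could not be tried without gene names. Among alternatives chosen after seeing the data, 2 groups in place of 3 joined the first and second groups. Signals near background limit what can be said of dim probes.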
